A study of Mus musculus with 20 samples.

Results

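Skin of conditional knockout mice (cKO) of genotype Sod2-/- was set against skin of Sod2+/+ control mice at 100 days of age. The comparison uses 5 of the 20 samples of the series, 3 cKO and 2 control samples, taken by the age and genotype in their labels. The samples were whole skin of the inbred strain C57BL/6, from which RNA was isolated, depleted of ribosomal RNA by 1 of 2 kits and sequenced. The labels do not say which kit a sample had, in which cells of the skin Sod2 was deleted, or which Cre line was used. The series also holds cKO and control skin at 300 days (n = 3 each) and control skin at 50 days (n = 5) and 700 days (n = 4), and its title concerns the AP-1 subunit JunB in fibroblasts and skin ageing. Expression was given as 1 FPKM value per gene and group (fragments per kilobase of transcript and per mapped depth, a length-scaled level). A single value per group leaves no spread between replicates, so nothing below carries an error or a test, and the read depth is unknown. Each difference is a log2 ratio of (FPKM + 1), cKO over control, and genes counted here as higher or lower in cKO skin are those with a ratio of size 1 or more, that is 2-fold. Such a count describes these group values and does not show that a difference exceeds the variation between mice.

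SOD2 is the manganese superoxide dismutase of the mitochondrial matrix. It turns superoxide, which leaks from the respiratory chain, into hydrogen peroxide, which catalase, glutathione peroxidases and peroxiredoxins then remove. Superoxide that is not removed damages iron-sulfur enzymes such as succinate dehydrogenase, and mice that lack SOD2 in every tissue die young. Skin is a mixture of epidermis, cycling hair follicles, dermis and a layer of fat over a thin sheet of muscle, so a transcript of 1 cell type can be lower in whole skin because the skin holds fewer such cells or because each cell holds less of the RNA, and these cannot be told apart here.

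Among 12132 named genes that averaged 1 FPKM or more across the 6 groups, 263 were higher and 519 lower in cKO skin, a background of 2.17% and 4.28%. The median log2 ratio of all these genes was 0.02, and 5% of them lay below -0.94 and 5% above 0.75. Against this background 94 lists of skin cell types, pathways and other tissues were counted, and 1329 of their 1611 genes entered. Of the rest, 166 were below the filter, 95 stood only on rows that carry several symbols and 21 had no row of their own. Only 2 lists had a median of at least 1, the inner root sheath of the hair follicle and the Y-linked genes, and 5 had a median of -1 or lower, those of secretory gland, adipocyte identity, fatty acid synthesis, lipid droplet and mammary epithelium genes. With no filter the medians of secretory gland, mammary epithelium and lipid droplet genes were -0.19, -0.34 and -0.99. Scaling both groups to equal totals moved the median of all genes to -0.10 and the counts to 235 higher and 795 lower. With equal totals 12 genes named below as higher had ratios between 0.89 and 0.99: Krt33a, Dlx3, Foxn1, Tyrp1, Trpm1, Dsg4, Dsc1, Krt16, Nfil3, Fkbp5, Car6 and Reln. Markers of skin were present in both groups. The epidermal keratin Krt5 had 525 FPKM in cKO and 358 FPKM in control skin, the fibroblast gene Dcn, which encodes the collagen-binding proteoglycan decorin, 269 FPKM in cKO and 236 FPKM in control skin and the muscle creatine kinase Ckm 1136 FPKM in cKO and 1869.5 FPKM in control skin.

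**Figure D1:**
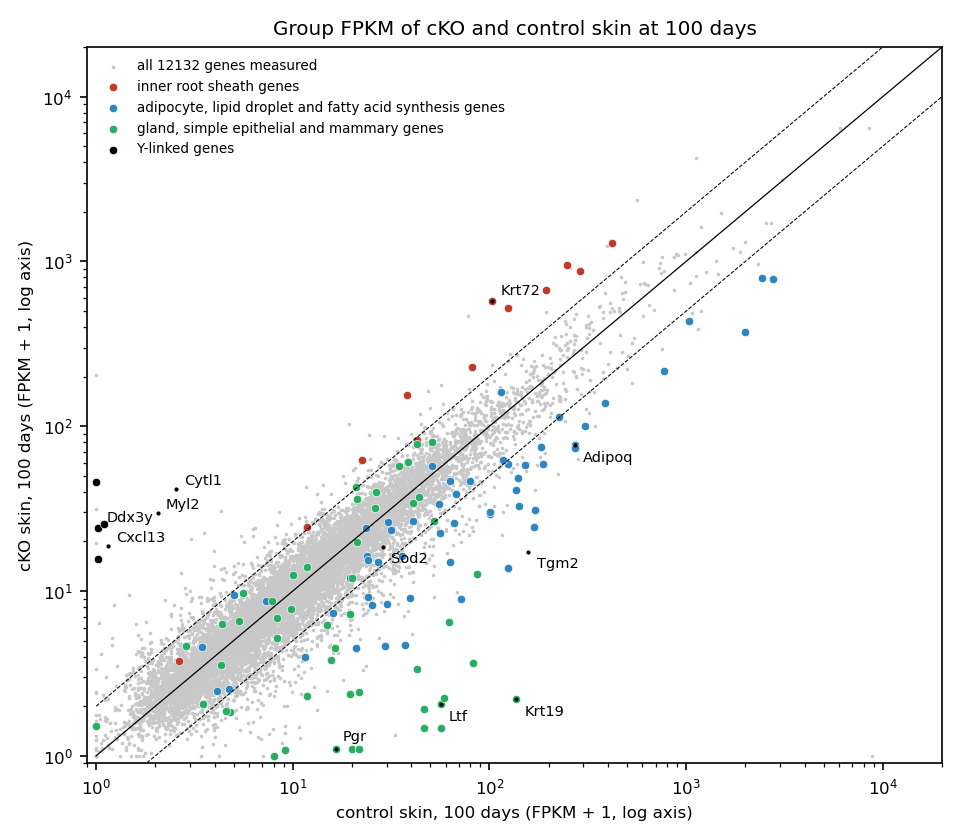
Each point is 1 of 12132 genes, with FPKM + 1 in cKO skin on the vertical and in control skin on the horizontal log axis at 100 days; the solid line marks equal values and the dashed lines a 2-fold difference. Of the inner root sheath genes (red) 10 of 12 lie past the upper dashed line, most adipocyte and lipid genes (blue) and many gland genes (green) below, and the Y-linked genes (black) at the left edge.

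The groups also differed in sex-linked transcripts. The Y-linked genes Ddx3y, Uty, Kdm5d and Eif2s3y lay between 14.7 and 45.0 FPKM in cKO skin and between 0 and 0.103 FPKM in control skin. Xist, the RNA that coats the inactive X chromosome, was 4.92 FPKM in cKO skin against 1141 FPKM in control skin, on a row that also carries a pair of predicted genes. Both 100-day groups therefore carry the sex-linked transcripts of opposite sexes, and genotype and this sex-linked difference cannot be told apart in anything that follows. The same holds at 300 days, where Y-linked genes lay between 16.4 and 37.5 FPKM in cKO skin and at or below 0.0556 FPKM in control skin.

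Sod2 itself was 17.6 FPKM in cKO and 27.7 FPKM in control skin, a log2 ratio of -0.63, so the targeted transcript was lower in the group labelled cKO by less than the size counted. Which exons were deleted is not in the labels, and a gene-level value sums over all exons. The other enzymes that handle superoxide and hydrogen peroxide leaned the same way: with Sod2, all 13 listed genes had a ratio below 0 (median -0.49), and 1 passed the size. That gene was Gpx3, the secreted glutathione peroxidase, at 50.1 FPKM in cKO skin against 223 FPKM in control skin (-2.13). Sod1, the cytosolic dismutase, was 88.2 FPKM in cKO skin against 169 FPKM in control skin (-0.93), and catalase (Cat) was 48.5 FPKM in cKO skin against 84.8 FPKM in control skin (-0.79). The peroxiredoxins Prdx5 and Prdx1 came closest to equal, with Prdx5 at 114 FPKM in cKO and 119 FPKM in control skin and Prdx1 at 142 FPKM in cKO and 175 FPKM in control skin. Sod3, the extracellular dismutase, was 2.88 FPKM in cKO skin against 6.09 FPKM in control skin (-0.87), so the secreted enzymes of the list lay on both sides of the 2-fold bound. Targets of NRF2, the transcription factor that answers to oxidants, showed 0 of 18 genes higher and 2 lower (median -0.14). The lower pair were the glutathione transferase Gsta4, at 4.01 FPKM in cKO skin against 10.4 FPKM in control skin, and the mitochondrial thioredoxin reductase Txnrd2, at 5.51 FPKM in cKO skin against 12.4 FPKM in control skin.

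Nuclear genes of the mitochondrion had ratios mostly below 0, each of less than 2-fold, in the listed subunits of every complex. Of 17 complex I subunits, 9 genes of complex II and other iron-sulfur enzymes, 18 of complexes III and IV and 10 of ATP synthase, 0 passed the size in either direction, and the medians were -0.4, -0.61, -0.49 and -0.36. All 15 enzymes of the tricarboxylic acid cycle had a ratio below 0 (median -0.55). The succinate dehydrogenase subunit Sdhb, an iron-sulfur protein, was 72.05 FPKM in cKO skin against 108 FPKM in control skin. The mitochondrial ferredoxin Fdx1, an electron carrier for iron-sulfur assembly and steroid synthesis, had the lowest ratio of its list, at 5.53 FPKM in cKO skin against 11.6 FPKM in control skin (-0.95). Transcripts made in the mitochondrion leaned the same way, with mt-Co1 at 1715 FPKM in cKO skin against 2703 FPKM in control skin and mt-Cytb at 1318 FPKM in cKO skin against 1989.9 FPKM in control skin, although mt-Nd3 was the single listed gene past the size, at low levels of 1.64 FPKM in cKO and 5.23 FPKM in control skin. Among regulators of mitochondrial number, Ppargc1b was counted as lower at 1.79 FPKM in cKO skin against 5.24 FPKM in control skin, while Tfam, the packaging factor of mitochondrial DNA, was 15.4 FPKM in cKO skin against 10.3 FPKM in control skin (0.53). Mitochondrial chaperones and proteases (9 genes, median -0.24) and integrated stress response genes (15 genes, median 0.14) had none past the size. Adipocyte and fast muscle genes were lower in the same skin (medians -1.61 and -0.87), and their part in these ratios was not tested.

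Many of the lowest ratios belonged to genes of glandular epithelium. Of 16 secretory gland genes 10 were lower and 1 higher (median -2.56), and of 14 mammary epithelium and milk genes 7 were lower and 0 higher (median -1.12). These medians depend on the filter, which a gene high in control skin alone can pass. With no filter they were -0.19 and -0.34, and at a mean of 5 FPKM or more the mammary median was -0.33. Krt19, Krt8 and Krt18, keratins of simple and glandular epithelia, were among the 20 lowest ratios of genes that have a row of their own and are not listed at 0. Krt19 was 1.21 FPKM in cKO skin against 136 FPKM in control skin (-5.95). Krt8, the type II keratin with which Krt18 and Krt19 pair, was 0.472 FPKM in cKO skin against 55.8 FPKM in control skin (-5.27), and Krt18 was 2.67 FPKM in cKO skin against 81.3 FPKM in control skin (-4.49). In cKO skin each of the 3 was at or below 2.67 FPKM, and in control skin at or above 55.8 FPKM.

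Secreted products and channels of gland cells followed the keratins. Lactoferrin (Ltf), the iron-binding protein of milk and other secretions, was 1.05 FPKM in cKO skin against 55.5 FPKM in control skin (-4.79), and the protease inhibitor gene Wfdc2 was 0.468 FPKM in cKO skin against 45.4 FPKM in control skin (-4.98). Aqp5, the water channel of secretory cells, was 0.107 FPKM in cKO skin against 19.01 FPKM in control skin, and Slc12a2, the ion cotransporter that drives fluid secretion, was 11.7 FPKM in cKO skin against 85.5 FPKM in control skin. Dmbt1, a mucosal glycoprotein whose annotated span overlaps Fgfr2, was 0.913 FPKM in cKO skin against 45.3 FPKM in control skin. Each of these had a ratio of -2.77 or lower, but the list did not go 1 way: Car6, a secreted carbonic anhydrase, was higher, at 41.9 FPKM in cKO skin against 20 FPKM in control skin (1.03). Of 21 genes of the simple epithelial list, which holds keratin and tight-junction genes, 7 were lower and 0 higher. Among the lower genes, Cldn7 was 0.0919 FPKM in cKO skin against 8.16 FPKM in control skin. Krt7, also lower, was 1.38 FPKM in cKO skin against 18.6 FPKM in control skin. In that list 7 ratios lay above 0, and the median was only -0.28.

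Hormone receptors and growth factors of the mammary duct were low in the same skin. The progesterone receptor Pgr was 0.0939 FPKM in cKO skin against 15.7 FPKM in control skin (-3.93), and the oestrogen receptor Esr1 was 6.22 FPKM in cKO skin against 18.6 FPKM in control skin (-1.44). Areg, the EGF receptor ligand through which oestrogen acts on the duct, was 5.49 FPKM in cKO skin against 61.5 FPKM in control skin (-3.27). The casein Csn3 was 1.46 FPKM in cKO skin against 20.7 FPKM in control skin, the milk-gene transcription factor Stat5a 3.53 FPKM in cKO skin against 15.4 FPKM in control skin and the oxytocin receptor Oxtr, which drives milk ejection in myoepithelial cells, 1.25 FPKM in cKO skin against 57.9 FPKM in control skin. Cited1, a cofactor of the oestrogen receptor, was listed at 0 in cKO skin and had 7.06 FPKM in control skin. The prolactin receptor Prlr, on a row with 2 further symbols, was 11.5 FPKM in cKO skin against 83.4 FPKM in control skin. Not all genes used by this epithelium were low, since Elf5, a regulator of milk-secreting cells, was 18.7 FPKM in cKO and 20.2 FPKM in control skin and the milk-fat enzyme Xdh 30.8 FPKM in cKO and 25.2 FPKM in control skin. Csn2 and Wap, the major milk proteins, were below the filter in these groups, at 0.450 FPKM in cKO and 0.402 FPKM in control skin for Csn2 and 0.122 FPKM in cKO and 0.0656 FPKM in control skin for Wap. Apart from Oxtr, 0 of the other measured myoepithelial genes were past the size, and the list median was 0.05.

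The gland transcripts varied across the other groups as well. Krt19 had 1.21 and 0.684 FPKM in cKO skin at 100 and 300 days, against 11.9, 136, 33.4 and 0.261 FPKM in control skin at 50, 100, 300 and 700 days. The Y-linked genes were high in both cKO groups and in the 700-day controls; in those old controls they lay between 17.6 and 45.1 FPKM. Pgr had 0.0939 and 0.0525 FPKM in cKO skin at 100 and 300 days, against 0.570, 15.7, 5.43 and 0.0914 FPKM in control skin at 50, 100, 300 and 700 days. The part of the sex-linked difference in these gland values was not tested. The list sums differed between the groups by a smaller factor than Krt19 and Pgr. Secretory gland genes summed to 98.2 and 95.4 FPKM in cKO skin at 100 and 300 days, against 126, 438, 201 and 146 FPKM in control skin at 50, 100, 300 and 700 days. Simple epithelial genes summed to 471 and 354 FPKM in cKO skin at 100 and 300 days, against 635, 669.8, 406 and 672 FPKM in control skin at 50, 100, 300 and 700 days. The 50- and 700-day samples carry another title prefix than the 100- and 300-day samples, so their levels stand here beside the others without a ratio.

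Krt8 and Krt18 are neighbours on mouse chromosome 15 and encode the partners of 1 filament. Their starts lie 23.9 kb apart, and the 2 genes are read towards opposite ends of the chromosome. The 250 bases before each start (RefSeq, GRCm38.p6) are shown because both are among those 20 lowest ratios. Capitals mark TAGGTCA, the core bound by orphan nuclear receptors of the ROR and REV-ERB families, searched on both strands; 2.23% of 32851 promoters of the same length hold it. Both the pair and the motif were chosen by hand. Promoters of the other lowest genes are not shown, and other motifs are not reported for this pair. The share over all promoters is therefore no test of these matches. A match describes letters, not a bound site.
Krt8 (chr15:102004343-102004592, minus strand): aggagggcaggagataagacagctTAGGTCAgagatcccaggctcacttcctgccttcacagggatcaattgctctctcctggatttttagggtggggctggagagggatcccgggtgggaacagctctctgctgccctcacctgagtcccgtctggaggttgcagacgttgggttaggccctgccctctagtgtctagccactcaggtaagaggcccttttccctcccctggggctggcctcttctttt
Krt18 (chr15:102027966-102028215, plus strand): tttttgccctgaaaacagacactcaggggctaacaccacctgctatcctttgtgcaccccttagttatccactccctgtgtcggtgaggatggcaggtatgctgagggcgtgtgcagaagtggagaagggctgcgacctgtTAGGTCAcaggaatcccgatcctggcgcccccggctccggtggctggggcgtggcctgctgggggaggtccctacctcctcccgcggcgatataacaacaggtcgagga

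Genes of white fat formed the broadest block of lower transcripts. Of 20 genes of adipocyte identity 15 were lower and 0 higher (median -1.61), of 19 lipid droplet and lipolysis genes 10 were lower (median -1.13), and of 18 fatty acid synthesis and esterification genes 11 were lower (median -1.3). No measured gene of these 3 lists was higher. The hormones of fat cells were among them: Adipoq (adiponectin) was 75.5 FPKM in cKO skin against 271 FPKM in control skin (-1.83), Retn (resistin) 137 FPKM in cKO skin against 384 FPKM in control skin (-1.48) and the complement protease adipsin (Cfd) 432 FPKM in cKO skin against 1034 FPKM in control skin (-1.26). Pparg, the master transcription factor of adipocytes, was lower by a smaller factor, at 15.3 FPKM in cKO skin against 34.99 FPKM in control skin (-1.14). At the far end stood Sncg, a synuclein of fat cells, at 12.7 FPKM in cKO skin against 124 FPKM in control skin (-3.19), and Nnat, an imprinted gene whose span overlaps Blcap, at 7.95 FPKM in cKO skin against 70.3 FPKM in control skin (-2.99).

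The enzymes of lipid handling differed from each other. Genes of glyceride synthesis and storage were lower: Pck1, which supplies the glycerol backbone in fat, was 23.3 FPKM in cKO skin against 168 FPKM in control skin (-2.8), Dgat2, which makes triglyceride, 39.95 FPKM in cKO skin against 135 FPKM in control skin (-1.73), and Cidec, which fuses lipid droplets, 57.98 FPKM in cKO skin against 187 FPKM in control skin (-1.67). Genes of lipolysis were lower as well, with the hormone-sensitive lipase Lipe at 28.2 FPKM in cKO skin against 99.6 FPKM in control skin (-1.78) and the adipose triglyceride lipase Pnpla2 at 57.2 FPKM in cKO skin against 151 FPKM in control skin (-1.38). Of 14 fatty acid uptake genes 6 were lower, among them the scavenger receptor Cd36 at 181 FPKM in cKO skin against 532 FPKM in control skin (-1.55), while the keratinocyte fatty acid-binding protein Fabp5 was 139.9 FPKM in cKO skin against 88.6 FPKM in control skin (0.65). The 13 enzymes of mitochondrial fatty acid oxidation with a row of their own centred on -0.53 with none past the size. On rows with several symbols, Etfb was 84.2 FPKM in cKO skin against 176 FPKM in control skin (-1.06). Acads, Etfdh and Cpt1b, on such rows too, lay inside the bounds. Ucp1, the uncoupling protein of heat-producing fat, was 2.49 FPKM in cKO skin against 22.6 FPKM in control skin (-2.76), and 2 of 14 thermogenic genes were lower. Adipocyte progenitor genes did not follow, with 0 of 10 lower, 1 higher and a median of -0.24; the higher gene, Dpp4, a peptidase on progenitors and upper dermal fibroblasts, was 33.8 FPKM in cKO skin against 12.9 FPKM in control skin (1.33).

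Sterol synthesis stood opposite to fatty acid synthesis, although both pathways answer to SREBP transcription factors. Of 17 sterol synthesis genes 13 had a ratio above 0 (median 0.39), 0 were lower and 1 passed the size. The demethylase Cyp51 stood just inside the bound, at 38.8 FPKM in cKO skin against 19.1 FPKM in control skin (0.99). Fasn, the fatty acid synthase, was by contrast 214 FPKM in cKO skin against 769 FPKM in control skin (-1.84), and the desaturase Scd1 372 FPKM in cKO skin against 1985 FPKM in control skin (-2.41). Srebf1, on a row shared with a microRNA, was 86.6 FPKM in cKO and 112 FPKM in control skin (-0.37). With equal totals no sterol synthesis gene passed the size. Genes of sebaceous and epidermal lipids leaned to the higher side by less, with 15 of 21 and 15 of 19 ratios above 0 (medians 0.32 and 0.18). The sebaceous list nevertheless summed to 768 FPKM in cKO and 802 FPKM in control skin. The sebaceous list had 3 of 21 genes higher, the fatty acyl reductase Far2 at 15.02 FPKM in cKO skin against 5.61 FPKM in control skin, the fatty acid hydroxylase Fa2h at 14.8 FPKM in cKO skin against 6.19 FPKM in control skin and the wax synthase Awat1 at 2.29 FPKM in cKO skin against 0.536 FPKM in control skin, and 1 lower, Pparg.

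**Figure D2:**
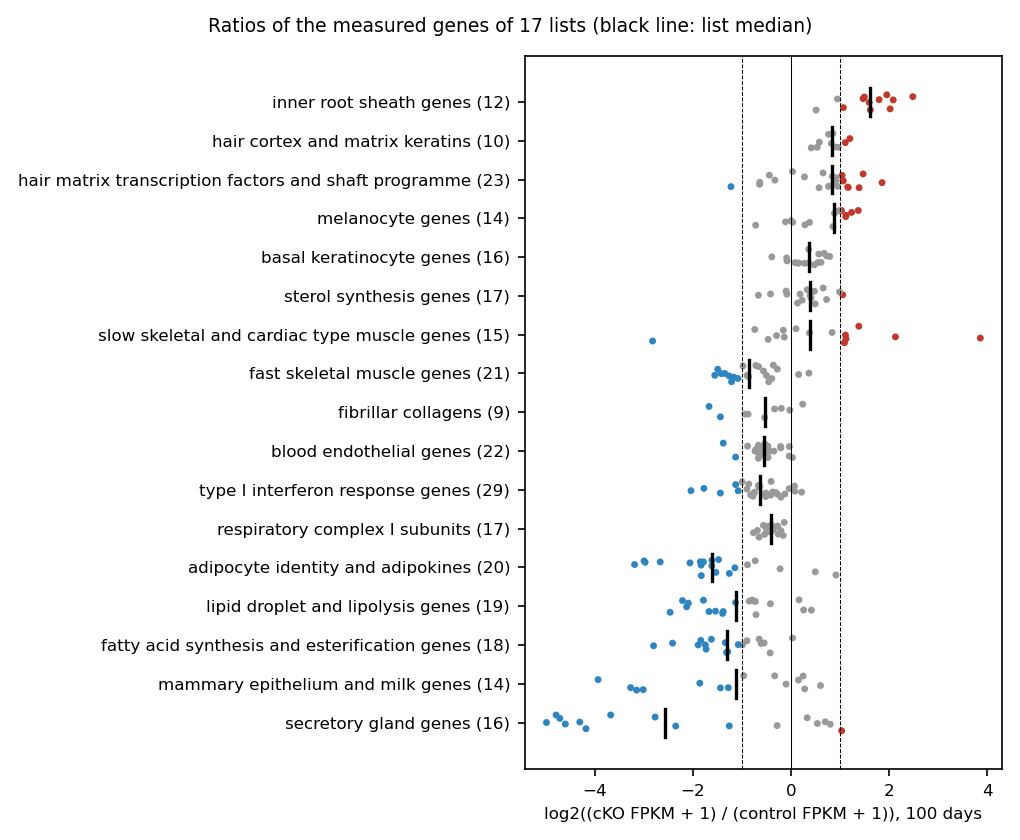
Each point is the log2 ratio (cKO over control, 100 days) of 1 measured gene of the list named at the left, with the number measured in brackets; points past the size of 1 (dashed lines) are red where higher in cKO and blue where lower, and black lines are list medians. Most inner root sheath genes sit right of 1, most adipocyte and gland genes left of -1, and sterol synthesis genes (median 0.39) right of 0 while fatty acid synthesis genes (median -1.3) lie left of it.

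Hormone and growth factor signals around fat and dermis were lower in the same direction. Leptin (Lep) was 3.73 FPKM in cKO skin against 36.1 FPKM in control skin (-2.97), and the insulin receptor substrate Irs1 was 9.62 FPKM in cKO skin against 21.7 FPKM in control skin (-1.1). Of 20 genes of the IGF system 5 were lower and 1 higher. Igf1, the ligand, was 15.9 FPKM in cKO skin against 45.7 FPKM in control skin (-1.47), and the growth hormone receptor Ghr, which drives its transcription in liver, was 57.8 FPKM in cKO skin against 137 FPKM in control skin (-1.23). The binding proteins split. Igfbp5 was 31.99 FPKM in cKO skin against 87.98 FPKM in control skin (-1.43). Igfbp3 was 163 FPKM in cKO skin against 47.96 FPKM in control skin (1.75), the single gene counted as higher. Pappa2, not counted because its row has a further symbol, was 9.68 FPKM in cKO skin against 2.40 FPKM in control skin (1.65).

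Skeletal muscle genes divided in part by fibre type. Of 21 fast muscle genes 8 were lower and 0 higher (median -0.87), and of 15 genes of slow and cardiac muscle 6 were higher and 1 lower (median 0.38). The fast myosin Myh4 was 389 FPKM in cKO skin against 1143 FPKM in control skin (-1.55), the calcium buffer parvalbumin (Pvalb) 294 FPKM in cKO skin against 752 FPKM in control skin (-1.35) and the calcium release channel Ryr1 22.6 FPKM in cKO skin against 65.5 FPKM in control skin (-1.49). In the other direction, the slow and ventricular myosin light chain Myl2, whose span overlaps Ccdc63, was 28.7 FPKM in cKO skin against 1.05 FPKM in control skin (3.85), slow troponin C (Tnnc1) 3.13 FPKM in cKO skin against 0.587 FPKM in control skin (1.38) and the stretch-responsive gene Ankrd2 16.4 FPKM in cKO skin against 2.99 FPKM in control skin (2.13). Its relative Ankrd1, outside the lists, was 7.17 FPKM in cKO skin against 0.229 FPKM in control skin (2.73). The 1 gene of the slow and cardiac list counted as lower was cardiac actin (Actc1), at 0.891 FPKM in cKO skin against 12.4 FPKM in control skin (-2.82). Of the 15 ratios of that list 9 were above 0 and 6 below 0. Mstn, which limits muscle growth, was 15.5 FPKM in cKO skin against 50.02 FPKM in control skin (-1.63). The summed level of the fast list was 14451 FPKM in cKO and 22173 FPKM in control skin and that of the slow list 759.6 FPKM in cKO and 752 FPKM in control skin, so muscle RNA was present in both groups. How much of the muscle sheet each sample held is not in the labels. Glycolysis enzymes, which fast muscle holds in quantity, had 17 of 18 ratios below 0 (median -0.65) and 1 past the size, the muscle phosphoglycerate mutase Pgam2, which the fast muscle list also holds.

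The hair follicle contributed a block of higher transcripts centred on the inner root sheath, the sleeve of cells that moulds the growing hair. Of 12 inner root sheath genes 10 were higher and 0 lower (median 1.6). The type II keratins Krt71, Krt72 and Krt73 lie together on chromosome 15, and the type I keratins Krt25, Krt26, Krt27 and Krt28 on chromosome 11. All 7 were higher. Krt72 was 575 FPKM in cKO skin against 102 FPKM in control skin (2.48), Krt71 1284 FPKM in cKO skin against 418 FPKM in control skin (1.62), Krt28 523 FPKM in cKO skin against 123 FPKM in control skin (2.08) and Krt25 872 FPKM in cKO skin against 289 FPKM in control skin (1.59). Trichohyalin (Tchh), the matrix protein that glues these filaments, was 957 FPKM in cKO skin against 247 FPKM in control skin (1.95), and Padi3, which converts its arginines, 61.2 FPKM in cKO skin against 21.5 FPKM in control skin (1.47). Cux1 and Epgn, the 2 listed genes inside the bound, are not restricted to the sheath and had 81.3 FPKM in cKO and 41.8 FPKM in control skin for Cux1 and 2.77 FPKM in cKO and 1.65 FPKM in control skin for Epgn. Gata3, a transcription factor of the sheath that the skin uses elsewhere too, was 91.3 FPKM in cKO and 95.7 FPKM in control skin on a row with a further symbol.

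Layers of the follicle beside the sheath leaned the same way by less. Of 10 keratins of the hair cortex and matrix 2 passed the size (median 0.84), Krt83 at 235 FPKM in cKO skin against 102 FPKM in control skin (1.2) and Krt33a at 273 FPKM in cKO skin against 127 FPKM in control skin (1.1). The 4 cuticle keratins had a median of 0.69 with none past it. In the companion layer, the flat cell layer outside the sheath, Krt75 was 102 FPKM in cKO skin against 43.7 FPKM in control skin (1.21). Keratin-associated proteins cross-link the filaments of the finished shaft. Their high-cysteine families leaned the same way by a small factor, with 21 of 28 ratios above 0 (median 0.19) and 1 at the bound, Krtap4-8 with 3.90 FPKM in cKO skin against 1.45 FPKM in control skin (1.000). The high glycine-tyrosine families, expressed first in the cortex, had 2 higher and 3 lower of 16 (median -0.38).

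That last list splits within 1 cluster of chromosome 16. All 6 measured Krtap19 genes, which lie side by side within 63.3 kb, had ratios below 0 (median -1.02), with Krtap19-4 at 32.5 FPKM in cKO skin against 94.4 FPKM in control skin (-1.51) and Krtap19-5 at 161 FPKM in cKO skin against 339 FPKM in control skin (-1.07). In the same 639 kb stretch Krtap6-3 was 23.1 FPKM in cKO skin against 5.43 FPKM in control skin (1.91) and Krtap8-1 271 FPKM in cKO skin against 138 FPKM in control skin (0.97). Members of these families are near-identical, so the share of reads each received is uncertain.

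**Figure D3:**
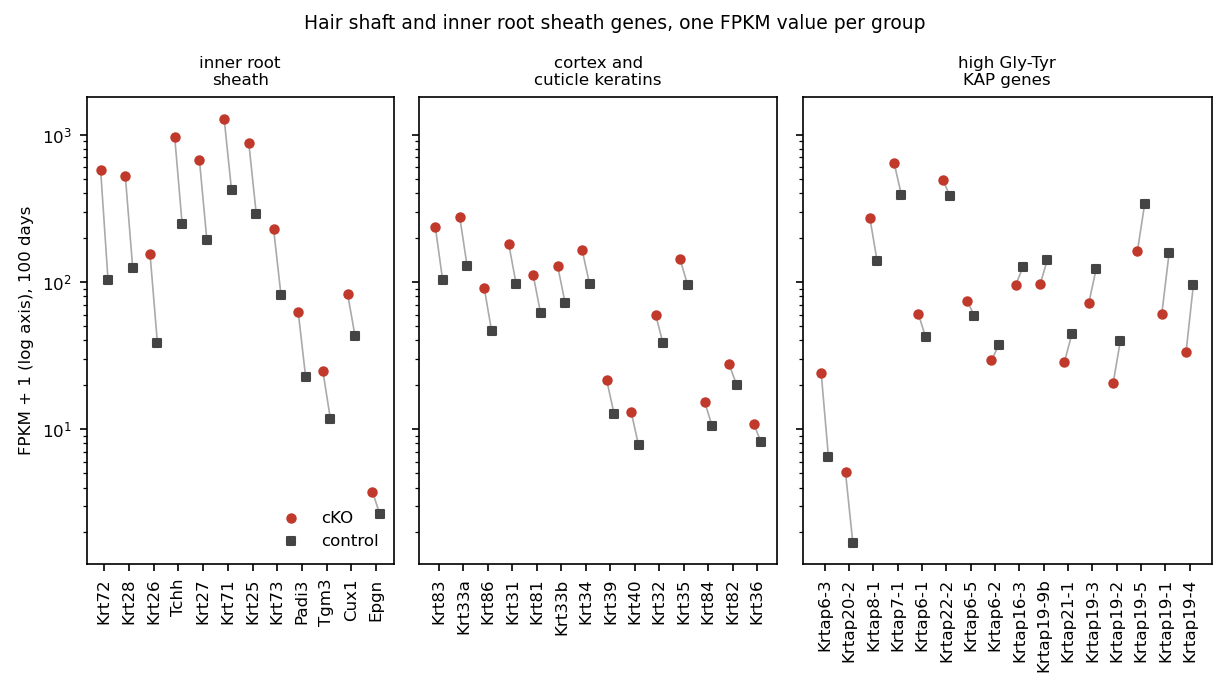
FPKM + 1 (log axis) of single genes in cKO (red circles) and control skin (grey squares) at 100 days, 1 value per group, for inner root sheath genes, cortex and cuticle keratins and high glycine-tyrosine keratin-associated proteins (KAP), each ordered by ratio. The red circle lies above its square for all genes of the first 2 panels, and below it for each Krtap19 gene in the third.

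Regulators of the growing follicle matched the sheath genes in direction. Of 23 matrix factors and shaft genes 8 were higher and 1 lower (median 0.84). Lef1, the Wnt effector of the matrix, was 53.4 FPKM in cKO skin against 23.3 FPKM in control skin (1.16), the homeobox factor Dlx3 56.2 FPKM in cKO skin against 26.4 FPKM in control skin (1.06), Foxn1, the gene mutated in nude mice, 13.2 FPKM in cKO skin against 5.89 FPKM in control skin (1.04) and Crym, a thyroid hormone-binding protein, 86.96 FPKM in cKO skin against 23.3 FPKM in control skin (1.85). Among 27 signals of the hair cycle the FGF genes stood out. Fgf5, the signal that ends hair growth, was 5.47 FPKM in cKO skin against 0.801 FPKM in control skin (1.84), Fgf22 5.98 FPKM in cKO skin against 2.03 FPKM in control skin (1.2) and Fgf18, a signal of the resting follicle, 6.09 FPKM in cKO skin against 1.39 FPKM in control skin (1.57), whereas Fgf10, a mesenchymal ligand, was lower at 1.38 FPKM in cKO skin against 10.04 FPKM in control skin (-2.21). Signals of both the growing and the resting phase were thus on the higher side. Hair follicle stem cell genes had 1 of 20 higher and 1 lower (median 0.22), and Wnt pathway genes 1 higher and 1 lower of 42. The 35 cell cycle genes had 29 ratios above 0 (median 0.37) and none past the size, with the mitotic kinases Bub1b at 12.8 FPKM in cKO and 5.89 FPKM in control skin and Plk1 at 4.58 FPKM in cKO and 2.06 FPKM in control skin. The phase of the hair cycle in each sample is not in the labels, and its part in these values was not tested.

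Pigment genes were higher beside the follicle genes. Of 14 melanocyte genes 5 were higher and 0 lower (median 0.87). They were Tyr, Tyrp1, Pmel and Mlana, of melanin synthesis and its organelle, and the channel gene Trpm1. Tyrosinase (Tyr), the rate-limiting enzyme, was 17.4 FPKM in cKO skin against 6.14 FPKM in control skin (1.37), the melanosome protein Mlana 18.6 FPKM in cKO skin against 7.35 FPKM in control skin (1.23) and the fibril protein Pmel 30.5 FPKM in cKO skin against 13.5 FPKM in control skin (1.12). Kit, Mitf and Ednrb, of the same lineage, had closer values. Kit was 18.9 FPKM in cKO and 18.9 FPKM in control skin, and Mitf 14.4 FPKM in cKO and 11.6 FPKM in control skin. Ednrb was 11.8 FPKM in cKO and 11.5 FPKM in control skin. Of the 14 ratios of the list 12 were above 0 and 2 below 0, the lowest at -0.72.

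The epidermis between follicles differed less. None of 16 basal keratinocyte genes passed the size (median 0.36), 1 of 31 suprabasal and cornified envelope genes was higher (median 0.02, which turns below 0 with equal totals), and 1 of 19 lipid barrier genes was higher. Desmosome genes, which bind keratinocytes to each other, had 12 of 14 ratios above 0 (median 0.6) and 2 past the size, Dsg4 of the hair shaft at 48.5 FPKM in cKO skin against 22.8 FPKM in control skin and Dsc1 of the upper epidermis at 90.8 FPKM in cKO skin against 44.6 FPKM in control skin. Stress and wound genes of the epidermis had 5 of 18 higher and 3 lower. The higher ones included the envelope proteins Sprr1b, at 8.22 FPKM in cKO skin against 2.34 FPKM in control skin (1.47), and Sprr2h, at 7.48 FPKM in cKO skin against 2.40 FPKM in control skin (1.32), and the wound keratin Krt16, at 8.81 FPKM in cKO skin against 3.84 FPKM in control skin (1.02). The calcium-binding protein S100a8 was 21.4 FPKM in cKO skin against 2.53 FPKM in control skin (2.66) while its partner S100a9 was 2.59 FPKM in cKO and 1.04 FPKM in control skin. Lcn2, an iron-trapping protein that the gland list also holds, was lower at 5.21 FPKM in cKO skin against 13.9 FPKM in control skin (-1.26). The interleukin gene Il1f10 was 21.3 FPKM in cKO skin against 8.24 FPKM in control skin (1.27), 1 of 19 IL-1 family genes past the size, and the protease Klk6 6.57 FPKM in cKO skin against 2.46 FPKM in control skin (1.13), 1 of 14 kallikreins and inhibitors. The beta-defensins, antimicrobial peptides, included Defb8, with 18.6 FPKM in cKO skin and listed at 0 in control skin.

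In the dermis, genes of particular collagens and of their processing were lower, while collagen I stayed inside the bounds. Col1a1, the main collagen chain of dermis, was 151 FPKM in cKO and 173 FPKM in control skin (-0.2) and Col1a2 166 FPKM in cKO and 242 FPKM in control skin (-0.54). Col3a1, on a row with a further clone name, was 881 FPKM in cKO skin against 1842 FPKM in control skin (-1.06). Collagen V, which sets fibril width, was lower in 2 of its chains, with Col5a2 at 31.7 FPKM in cKO skin against 87.8 FPKM in control skin (-1.44) and Col5a3 at 6.25 FPKM in cKO skin against 22.1 FPKM in control skin (-1.67). The 3 main chains of the beaded-filament collagen VI were lower, Col6a3 furthest at 18.9 FPKM in cKO skin against 70.6 FPKM in control skin (-1.85). Col15a1, of the zone under basement membranes, was 29.2 FPKM in cKO skin against 116 FPKM in control skin (-1.96), and Col4a1 of the basement membrane itself 89.7 FPKM in cKO skin against 187 FPKM in control skin (-1.05). In all, 2 of 9 fibrillar, 3 of 12 other and 3 of 23 basement membrane genes were lower and 0 higher.

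Proteins that fold, link and decorate collagen were lower in part. The collagen chaperone Serpinh1 was 24.5 FPKM in cKO skin against 74.6 FPKM in control skin (-1.57) and the prolyl hydroxylase P3h1 4.41 FPKM in cKO skin against 15.2 FPKM in control skin (-1.58), and 4 of 23 genes of this group were lower. Lox, the cross-linking oxidase, leaned the other way at 16.6 FPKM in cKO and 8.91 FPKM in control skin (0.83), while its relative Loxl1 was lower at 2.14 FPKM in cKO skin against 5.87 FPKM in control skin. Lumican (Lum) was 17.98 FPKM in cKO skin against 64.4 FPKM in control skin (-1.78) and Prelp 7.76 FPKM in cKO skin against 23.9 FPKM in control skin (-1.51), both leucine-rich proteoglycans of collagen fibres, whereas decorin, of the same family, had a ratio of 0.19. Periostin (Postn), a matricellular protein of remodelling matrix, was 62.1 FPKM in cKO skin against 281 FPKM in control skin (-2.16), and thrombospondin 1 (Thbs1), an activator of TGF-beta, was higher at 45.8 FPKM in cKO skin against 20.1 FPKM in control skin (1.15). Of 21 matricellular genes 4 were lower and 1 higher. The 22 measured fibroblast markers had a median of -0.48 with Dpp4 alone past the size, and Pdgfra, on a row shared with a microRNA, was 17.6 FPKM in cKO and 21.4 FPKM in control skin. Fat cells also express collagen VI, collagen XV and Col4a1, and their markers were lower beside these genes. What part that had in the matrix values was not tested.

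Among TGF-beta pathway genes the feedback inhibitor Smad7 was higher, at 24.2 FPKM in cKO skin against 7.31 FPKM in control skin (1.6), and Tgfb3 and the latent binding protein Ltbp2 were lower, at 2.76 FPKM in cKO skin against 7.45 FPKM in control skin and 5.18 FPKM in cKO skin against 13.8 FPKM in control skin, out of 22 genes measured. Vessel genes were a little lower. Of 22 blood endothelial genes 2 were lower (median -0.55), Rgcc at 12.2 FPKM in cKO skin against 33.3 FPKM in control skin and the capillary lipase anchor Gpihbp1 at 11.9 FPKM in cKO skin against 27.2 FPKM in control skin, and Pecam1, which marks all endothelium, was 27.99 FPKM in cKO and 32.6 FPKM in control skin. Lymphatic genes differed in sign, with all 5 measured ratios above 0 and 2 past the size, Mmrn1 at 11.8 FPKM in cKO skin against 1.69 FPKM in control skin (2.25) and Reln at 6.61 FPKM in cKO skin against 2.80 FPKM in control skin (1.002, and 0.97 with equal totals). The receptor Flt4 was 2.08 FPKM in cKO and 0.870 FPKM in control skin and the hyaluronan receptor Lyve1 5.73 FPKM in cKO and 4.75 FPKM in control skin. Pericyte and smooth muscle genes had none of 15 past the size, and Schwann cell genes 1 of 16, Fa2h, which sebocytes express too.

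Lymphocyte genes were at low levels in both groups. Of 15 B and plasma cell genes 1 was lower, the light chain gene Igkc at 1.88 FPKM in cKO skin against 5.76 FPKM in control skin, and the list summed to 11.2 FPKM in cKO and 17.1 FPKM in control skin. The defining marker Ms4a1, which encodes CD20, had 0.255 FPKM in cKO skin and was listed at 0 in control skin. None of 18 T and NK cell genes passed the size. Myeloid genes were lower in part: of the 26 macrophage and monocyte genes measured, 5 were lower and 1 higher (median -0.52), among them the lipopolysaccharide co-receptor Cd14, at 0.871 FPKM in cKO skin against 3.88 FPKM in control skin (-1.38), the monocyte chemokine receptor Ccr2, at 2.10 FPKM in cKO skin against 5.50 FPKM in control skin (-1.07), and Retnla, a product of alternatively activated macrophages, at 17.4 FPKM in cKO skin against 45.3 FPKM in control skin (-1.33). Adgre1, which encodes the F4/80 antigen, was 2.63 FPKM in cKO and 5.69 FPKM in control skin (-0.88). Lyz1, a lysozyme with the near-identical copy Lyz2, was higher at 13.4 FPKM in cKO skin against 5.18 FPKM in control skin.

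Interferon response genes lay mostly on the lower side, with 26 of 29 ratios below 0 (median -0.64) and 5 past the size. Ifi27 was 40.3 FPKM in cKO skin against 169 FPKM in control skin (-2.04), Ifi27l2a 100.0 FPKM in cKO skin against 345 FPKM in control skin (-1.77) and the T cell chemokine Cxcl9 0.472 FPKM in cKO skin against 2.99 FPKM in control skin (-1.44). Of the class I genes, Cd1d1, which presents lipids to T cells, was far lower at 4.46 FPKM in cKO skin against 39.3 FPKM in control skin (-2.88). Chemokines had 4 of 23 lower and 1 higher. The higher one was Cxcl13, which draws B cells into follicles, at 17.7 FPKM in cKO skin against 0.152 FPKM in control skin (4.02), in skin with 0.255 FPKM of Ms4a1. Complement genes had 2 of 21 lower and 1 higher, with 14 ratios below 0 (median -0.4). The higher one was C7, which joins the membrane attack complex, at 4.19 FPKM in cKO skin against 0.204 FPKM in control skin (2.11). Of the mast cell genes that passed the filter, 0 of 11 were higher and 1 lower, Tph1, a serotonin enzyme that mammary cells also express. Below the filter, Tpsab1 was 4.37 FPKM in cKO skin against 0.339 FPKM in control skin. Ms4a2, also below it, was 2.37 FPKM in cKO skin against 0.698 FPKM in control skin. The other mast cell genes below the filter were under 1 FPKM in both groups.

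The AP-1 transcription factor, to which the series title refers, showed opposite ratios among its subunits. Junb was 33.9 FPKM in cKO and 20.1 FPKM in control skin (0.73), and Fosl2, a partner of Jun proteins, 30.5 FPKM in cKO and 20.03 FPKM in control skin (0.58). Fos and Fosb, the rapidly induced partners, were lower, with Fos at 6.76 FPKM in cKO skin against 21.8 FPKM in control skin (-1.55) and Fosb at 0.397 FPKM in cKO skin against 5.07 FPKM in control skin (-2.12). Of 9 measured subunits 2 were lower and 0 higher. Other immediate early genes, which also respond to tissue handling, had 3 of 20 lower: the phosphatase Dusp1 at 9.81 FPKM in cKO skin against 24.2 FPKM in control skin, the cytokine inhibitor Socs3 at 5.33 FPKM in cKO skin against 13.4 FPKM in control skin and the vessel factor Klf2 at 2.64 FPKM in cKO skin against 6.99 FPKM in control skin; Egr1 was 18.3 FPKM in cKO and 9.94 FPKM in control skin (0.82). The part of tissue handling in the Fos values was not tested. Growth arrest genes were mixed. Cdkn2a, which encodes cell cycle inhibitors, had 1.44 FPKM in cKO skin and was listed at 0 in control skin. Cdkn1a, which encodes p21, was 65.96 FPKM in cKO and 37.2 FPKM in control skin (0.81), Cdkn2c was lower at 9.56 FPKM in cKO skin against 24.5 FPKM in control skin (-1.27), and none of 17 p53 targets passed the size (median 0.26). Of 19 secreted factors tied to senescence 1, Igfbp3, was higher and 3 were lower, among them Areg and Igfbp5.

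Circadian clock genes lay on both sides. The clock is a loop in which ARNTL (BMAL1) and CLOCK activate Per, Cry, Nr1d1, Dbp and Bhlhe genes through E-boxes. The products of the Per, Cry, Nr1d1 and Bhlhe genes repress the loop. ROR and REV-ERB proteins act on ROR elements, and DBP, TEF and HLF compete with NFIL3 at D-boxes. Of 18 clock genes 2 were higher and 2 lower (median -0.01). Arntl, the activator, was 11.8 FPKM in cKO skin against 3.99 FPKM in control skin (1.36), and Nfil3, the D-box repressor, 14.3 FPKM in cKO skin against 6.36 FPKM in control skin (1.06). The lower genes were Dbp, the D-box activator, at 14.1 FPKM in cKO skin against 34.4 FPKM in control skin (-1.23), and Bhlhe41, an E-box repressor, at 4.02 FPKM in cKO skin against 16.4 FPKM in control skin (-1.79). Hlf lay on the same side at 8.32 FPKM in cKO and 17.4 FPKM in control skin (-0.98), as did Nr1d2, which encodes REV-ERB beta, at 15.6 FPKM in cKO and 27.03 FPKM in control skin (-0.76). The repressors Per1 and Cry1 lay on the other, with 29.7 FPKM in cKO and 15.2 FPKM in control skin for Per1 (0.93) and 4.93 FPKM in cKO and 2.34 FPKM in control skin for Cry1 (0.83). The D-box activator and repressor thus had opposite ratios, whereas the E-box activator Arntl had a ratio above 0 together with the repressors Per1 and Cry1 and opposite to Bhlhe41. The hour at which skin was taken is not in the labels, and its part in these values was not tested.

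The 250 bases before the start of 5 clock genes (RefSeq, GRCm38.p6) are shown because each holds the kind of element through which the loop acts. The 3 motifs were searched on both strands: the E-box CACGTG, in 6.02% of 32851 promoters of this length, the D-box TTATGTAA, in 0.819%, and the ROR core TAGGTCA, in 2.23%. Promoters were matched for 15 of the 18 clock genes, and 5 genes held an E-box, 1 a D-box and 1 the ROR core. Capitals mark the ROR core in Nfil3, the E-box in Per1, Cry1 and Bhlhe41, and the D-boxes in Per3.
Nfil3 (chr13:52981040-52981289, minus strand): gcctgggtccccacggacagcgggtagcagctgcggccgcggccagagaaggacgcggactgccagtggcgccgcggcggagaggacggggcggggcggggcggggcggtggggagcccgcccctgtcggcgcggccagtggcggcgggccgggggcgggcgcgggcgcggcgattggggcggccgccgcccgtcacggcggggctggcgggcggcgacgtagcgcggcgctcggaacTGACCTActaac
Per1 (chr11:69098699-69098948, plus strand): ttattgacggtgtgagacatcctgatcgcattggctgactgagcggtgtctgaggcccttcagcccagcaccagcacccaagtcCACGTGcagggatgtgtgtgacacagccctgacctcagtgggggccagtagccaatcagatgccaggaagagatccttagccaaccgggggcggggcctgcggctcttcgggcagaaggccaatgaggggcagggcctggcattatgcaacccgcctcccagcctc
Cry1 (chr10:85185055-85185304, minus strand): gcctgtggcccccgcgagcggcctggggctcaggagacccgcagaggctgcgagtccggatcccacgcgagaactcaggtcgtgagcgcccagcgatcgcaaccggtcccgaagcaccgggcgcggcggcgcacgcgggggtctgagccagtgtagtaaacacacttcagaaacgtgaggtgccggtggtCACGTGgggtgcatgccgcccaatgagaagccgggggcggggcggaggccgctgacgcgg
Bhlhe41 (chr6:145865421-145865670, minus strand): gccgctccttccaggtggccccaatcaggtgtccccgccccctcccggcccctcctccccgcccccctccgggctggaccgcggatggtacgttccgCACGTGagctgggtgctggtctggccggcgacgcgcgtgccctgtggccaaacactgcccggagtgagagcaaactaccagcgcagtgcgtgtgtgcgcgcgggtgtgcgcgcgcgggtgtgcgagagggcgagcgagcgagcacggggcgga
Per3 (chr4:151044666-151044915, minus strand): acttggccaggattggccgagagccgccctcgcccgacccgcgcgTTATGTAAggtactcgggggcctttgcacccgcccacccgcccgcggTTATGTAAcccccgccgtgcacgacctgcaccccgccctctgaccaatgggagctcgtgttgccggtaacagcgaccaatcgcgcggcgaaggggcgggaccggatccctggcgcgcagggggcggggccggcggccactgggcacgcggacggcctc
The ROR core of Nfil3 begins 12 bases before the start, on the opposite strand. The E-box begins 166 bases before the start in Per1, 60 in Cry1 and 153 in Bhlhe41. Per3, with D-boxes beginning 205 and 158 bases before the start, was 8.57 FPKM in cKO and 13.3 FPKM in control skin (-0.58). Of the printed genes with an E-box, Per1 and Cry1 had ratios above 0, inside the bound, and Bhlhe41 was lower. Tef and Ciart also held an E-box and are not printed, and a second Per1 promoter held none.

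**Figure D4:**
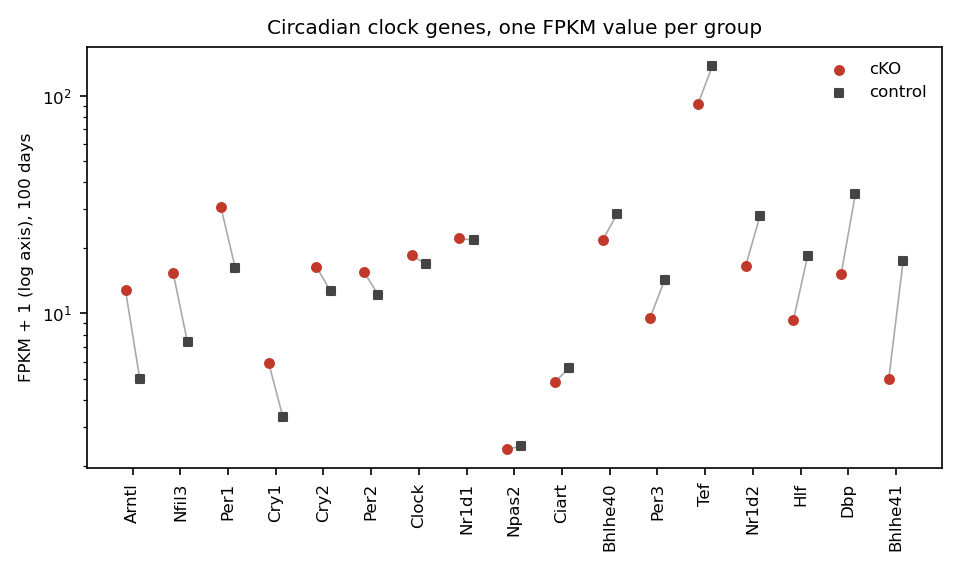
FPKM + 1 (log axis) of 17 of the 18 circadian clock genes in cKO (red circles) and control skin (grey squares) at 100 days, 1 value per group, ordered by ratio. The circle lies above the square for Arntl and Nfil3 at the left and below it for Dbp and Bhlhe41 at the right.

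Hox genes record position along the body, and those with a row of their own were mostly on the higher side. Of 17 such genes measured, 16 had a ratio above 0 (median 0.67), 4 were higher and 0 lower. Rows with several symbols were not counted: Hoxa2 with Hoxa3 (-0.04), Hoxd3 with Hoxd4 (-0.09), Hoxc10 with Hoxc5 (0.19) and Hoxd10 with Hoxd11 (0.39). Hoxb3 was 7.79 FPKM in cKO skin against 1.24 FPKM in control skin (1.97), Hoxa7 5.66 FPKM in cKO skin against 1.70 FPKM in control skin (1.3) and Hoxb6 4.07 FPKM in cKO skin against 1.14 FPKM in control skin (1.25). All 7 measured genes of the Hoxb cluster on chromosome 11, within 82.6 kb, had ratios above 0, with a median of 0.96. The body site of the skin is not in the labels, and its part in these values was not tested. Steroid-responsive Fkbp5, a chaperone induced by glucocorticoid, was 62 FPKM in cKO skin against 29.1 FPKM in control skin (1.07), while Tsc22d3, another such gene, was 55.3 FPKM in cKO and 55.8 FPKM in control skin.

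Other single genes also stood at the ends of the ranking. Cytl1, a small secreted protein known from cartilage, was 40.6 FPKM in cKO skin against 1.54 FPKM in control skin (4.04). Apod, a lipid-binding lipocalin, was 102 FPKM in cKO skin against 18.4 FPKM in control skin (2.41), Ifitm1, an interferon-induced membrane protein, 19.8 FPKM in cKO skin against 2.03 FPKM in control skin (2.78), and Chil3, a chitinase-like protein of macrophages, 5.39 FPKM in cKO skin against 0.0358 FPKM in control skin (2.63). Ifitm1 and Chil3 thus lay opposite to most listed interferon and macrophage genes. Boll, an RNA-binding protein of germ cells, was 8.52 FPKM in cKO skin against 0.477 FPKM in control skin. On the other side, the synaptic adhesion gene Nrxn3 was 0.337 FPKM in cKO skin against 32.2 FPKM in control skin (-4.63), the transglutaminase Tgm2, whose span overlaps Rprd1b, 16.4 FPKM in cKO skin against 157 FPKM in control skin (-3.18), and the tryptophan-degrading enzyme Ido1 0.101 FPKM in cKO skin against 20.7 FPKM in control skin (-4.3). Small RNAs and a gene with many copies were also among the highest ratios. Rny1, a Y RNA, was 2362 FPKM in cKO skin against 563 FPKM in control skin, the spliceosomal RNA Rnu11 463 FPKM in cKO skin against 76.8 FPKM in control skin and Rpl29, a ribosomal protein gene with many processed copies, 29.6 FPKM in cKO skin against 3.32 FPKM in control skin. The part of the depletion kit in these values was not tested, and reads of Rpl29 and its copies cannot be told apart. The 26 ribosomal protein genes with a row of their own centred on 0.34 with none past the size. Rpl5, on a row with a further symbol, was 1244 FPKM in cKO skin against 373 FPKM in control skin (1.73). Other listed ribosomal protein genes on such rows lay inside the bounds. Lars2 was listed at 0 in cKO skin and at 8767 FPKM in control skin, and Snhg7 had 30.5 FPKM in cKO skin and was listed at 0 in control skin; a 0 here may be a gene the program could not estimate.

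The same genotypes at 300 days gave a second set of values with no group in common. Of the 263 genes higher at 100 days, 37 (14.1%) were also higher at 300 days, where 1.81% of all genes were, and of the 519 lower genes 154 (29.7%) were also lower, where 5.08% of all genes were. Of the genes counted at 300 days, the shared ones were 16.8% of the 220 higher and 25.0% of the 616 lower. The same sex-linked difference divides the groups at both ages. Gland and fat lists were low at both, secretory gland genes with medians of -2.56 at 100 and -1.34 at 300 days and adipocyte identity genes with -1.61 and -0.996. Krt19 was 0.684 FPKM in cKO skin against 33.4 FPKM in control skin at 300 days, and Adipoq 68.7 FPKM in cKO skin against 159.8 FPKM in control skin.

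Other lists had unlike medians at the 2 ages. The inner root sheath median was 1.6 at 100 days and 0.07 at 300 days, with Krt72 at 219 FPKM in cKO skin against 297 FPKM in control skin at the later age. The melanocyte median was 0.87 at 100 and -0.46 at 300 days, and that of high glycine-tyrosine keratin-associated proteins -0.38 at 100 and 0.91 at 300 days. Fast muscle genes had -0.87 and 0.07, and B and plasma cell genes -0.15 at 100 and -3.79 at 300 days. With 1 value per group none of these differences between ages could be tested.

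**Figure D5:**
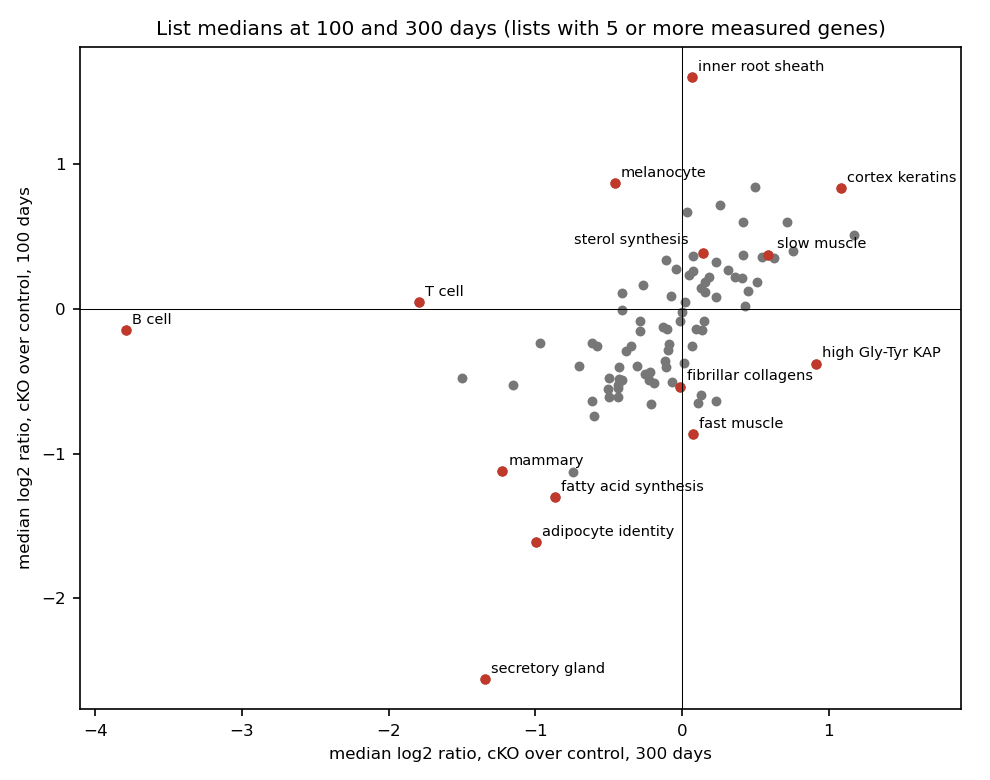
Each point is the median log2 ratio (cKO over control) of 1 gene list with at least 5 measured genes, at 100 days on the vertical and at 300 days on the horizontal axis; red points are named. Gland and adipocyte lists lie low on both axes, the inner root sheath high on the 100-day axis alone, and B and T cell lists low on the 300-day axis alone.

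In 24 genes the sign turned round between the ages with the size passed at both. Fos and Fosb were among them: Fos was 18.04 FPKM in cKO skin against 6.43 FPKM in control skin at 300 days (1.36, beside -1.55 at 100 days) and Fosb 2.35 FPKM in cKO skin against 0.609 FPKM in control skin (1.06, beside -2.12). Cxcl13 was 2.91 FPKM in cKO skin against 11.1 FPKM in control skin at 300 days (-1.63), where it had been 4.02 at 100 days. The melanocyte channel Trpm1 turned round too, at 23.4 FPKM in cKO skin against 50.6 FPKM in control skin (-1.08, beside 1.11), as did Krtap19-1 and Krtap19-4, with 1.3 and 1.21 at 300 days. The stefin genes Stfa3 and BC100530, inhibitors of cysteine proteases with near-identical copies, were lower at 100 days, with 0.202 FPKM in cKO and 7.78 FPKM in control skin for Stfa3 and 1.71 FPKM in cKO and 4.86 FPKM in control skin for BC100530. At 300 days Stfa3 had 48.7 FPKM in cKO skin and was listed at 0 in control skin, and BC100530 was 132 FPKM in cKO skin against 1.41 FPKM in control skin.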

How the data were processed

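Whole skin of mice, 20 samples in 6 groups was measured by RNA sequencing, and the 100-day cKO (n = 3) and control (n = 2) groups were compared. Source names and genotypes gave the groups. Ribosomal RNA was removed with either of 2 kits and directional libraries were made, per the labels' protocols. Per the submitters' processing notes, HISAT2, Cufflinks and Cuffdiff were used against mm10. Versions, the annotation, the use of strand in counting and how samples of a group were combined remain not given in the sources used here.

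Deposited by the authors was FPKM in 1 column per group and 46744 rows. Values of single samples were not used here, so depth is unknown, no error or interval can be given, and p-values are absent. Log2 ratios of (FPKM + 1) understate differences at low levels. A row with a single symbol was a named gene, without predicted, microRNA, small nucleolar RNA and pseudogene names (19263, of which 98.3% were found in GENCODE M21 of GRCm38); 1057 rows of several symbols did not enter, and for 53 symbols with several rows the row with the highest mean was taken. Genes that averaged 1 FPKM or more across the 6 groups entered, of which 32 are listed at 0 in a 100-day group.

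The comparison, the gene lists and the genes named were chosen with earlier results of these data known. The text names Sod2, Junb, Igf1, the 20 genes at each end of the ratios among those reaching 5 FPKM in 1 group and not listed at 0 in either, list members past the size from the largest down together with those that define a cell type or pathway, genes listed at 0 in 1 group, and genes of opposite size at 300 days; not every gene so named is reported, and Egr1, Bub1b, Plk1, Dcn, Flt4, Lyve1, Mitf, Ednrb, Fosl2, Tfam, Elf5, Xdh and Tsc22d3 were chosen after their values were seen. The counting was tested on simulated tables. Alternatives were other pseudocounts, filters, scalings, row choices and gene sets. Python 3.11.15, pandas 2.3.3, numpy 2.4.6 and matplotlib 3.10.9 were used.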

Additional observations from a re-analysis of the deposited data

How the results depend on the processing

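The counts of 263 higher and 519 lower genes depended on the pseudocount, the size and the scaling. They were 464 and 809 with a pseudocount of 0.1 FPKM, 170 and 331 at a mean of 5 FPKM or more, 70 and 180 at a size of 1.5, and 235 and 795 with equal totals (TPM), where higher genes made up 22.8% of those counted against 33.6%. Under the other planned settings (a pseudocount of 0.5, no filter, a filter on the 2 groups, a common median, summed rows, genes listed at 0 left out, and muscle, adipose, gland and sex-linked list genes left out) and under 2 settings added after seeing the data (rows with several symbols included, protein-coding genes only) the higher genes numbered 247 to 357 and the lower 443 to 644. Of 241 list and end genes tried, 19 dropped under the size in some alternative, 16 of them with equal totals. The count that changed sign was 0, but other pseudocounts and filters cannot turn the sign of a ratio. Equal totals moved the median of all genes only to -0.10, too little to turn a ratio past the size. The count of sign changes is therefore no evidence that the signs are stable. With no filter the median of secretory gland genes was -0.19, that of mammary genes -0.34 and that of lipid droplet genes -0.99, since more low genes enter; at a mean of 5 FPKM or more the mammary median was -0.33. No replicate could be left out because each group has 1 column. No paired analysis was possible because the 100-day groups share no replicate number and no value per sample was used here.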

Other observations

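The hair, fat and gland values of control skin at 100 days can be set beside the older control group of the same title prefix. Inner root sheath genes summed to 5432 FPKM in cKO and 1565 FPKM in control skin at 100 days, and to 2571 FPKM in cKO and 2458 FPKM in control skin at 300 days. Adipocyte identity genes summed to 2643 FPKM in cKO and 7901 FPKM in control skin at 100 days, and to 2947 FPKM in cKO and 5725 FPKM in control skin at 300 days. The highest sum of the 4 values for the sheath was that of 100-day cKO skin, and the highest for adipocyte genes that of 100-day control skin. Cytl1, Myl2 and Ankrd1 were far higher in 100-day cKO skin than in any other group: Cytl1 had 2.18 FPKM in cKO and 0.531 FPKM in control skin at 300 days, Myl2 1.54 FPKM in cKO and 0.357 FPKM in control skin, and Ankrd1 0.581 FPKM in cKO and 0.128 FPKM in control skin. Without values per mouse, whether 1 of the 3 cKO samples carries these levels cannot be seen. Prlr was 5.38 FPKM in cKO and 22.4 FPKM in control skin at 300 days, again lower in cKO skin.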
